A study of Mus musculus with 6 samples.

Results

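The sorting nexins are a family of proteins that sort membrane cargo on endosomes. Here they were all genes whose platform symbol is Snx followed by a number. The bead arrays carried 35 probes for 24 such genes, among 24611 probes and 15967 named genes in all. The brightest probe of each gene, by mean log2 intensity over the 6 arrays, stood for it. Testing required a detection p under 0.05 on every array of the WT, of the KO or of both, and 21 of the 24 genes and 27 of the 35 probes met this. By the representative probe, 18 genes were detected on all 6 arrays, 3 on some arrays (Snx15, Snx16 and Snx33) and 3 on none (Snx6, Snx29 and Snx31). The mouse RefSeq gene table lists 6 further Snx genes with no probe under their symbol (Snx13, Snx21, Snx22, Snx25, Snx27 and Snx32), which were not analysed here.

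Sorting nexins share a phox homology (PX) domain, most often a reader of phosphatidylinositol 3-phosphate, the lipid that marks early endosomes. Some add a BAR domain that bends membrane into tubules, a FERM domain that holds cargo tails, or a PXA domain with a membrane anchor. The BAR-domain members Snx1, Snx2, Snx5 and Snx6 act with or beside retromer, the coat that returns receptors from endosomes to the Golgi or the cell surface. In megakaryocytes, endosomes and multivesicular bodies are stations on the way to platelet alpha granules, and work in a human megakaryocytic cell line has linked SNX24 to the formation of those granules.

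The arrays held RNA of mouse megakaryocyte progenitors, bone marrow cells from which the platelet-forming megakaryocytes develop. The cells came from C57BL/6 mice carrying intact Srf (WT, 3 arrays) or with Srf removed through Cre recombinase expressed from the Pf4 promoter (KO, 3 arrays), Pf4 being a chemokine gene of platelet granules. The product of Srf, serum response factor, drives transcription of cytoskeletal and immediate early genes. Both groups were depleted of lineage-marked cells, kept overnight in stem cell factor and thrombopoietin, sorted for c-kit and CD41, and then held in thrombopoietin alone for 3 more days. The sources used here do not state the mice's ages or sexes, nor whether WT mice carried Cre or a loxP-flanked allele. The deletion depends on how early and in how many cells the Pf4 promoter drives Cre. No label ties a replicate number to an animal, and the p-values below therefore reflect only the spread between samples, which may be technical.

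The arrays detected 9801 to 10364 probes each. The Srf probe that could be tested lay at log2 12.31, 11.89 and 11.98 in WT replicates 1 to 3 and at 7.35, 7.56 and 7.20 in KO replicates 1 to 3, with no overlap. All 10 megakaryocyte markers on the array were detected on every array, with means of 12.47, 12.22 and 12.20 in WT replicates 1 to 3 and 12.79, 12.48 and 12.44 in KO replicates 1 to 3. Of these 10 markers, 9 were higher in the KO by mean (median difference +0.35), where 51% of all tested genes were lower. The groups were apart for 4, against 18.2% of all tested genes. For 6, WT replicates 2 and 3 were lowest, against 40.6% of all tested genes lowest or highest there. An unadjusted p under 0.05 was found for 3, against 12.9% of all tested genes. None of these markers passed limma's adjusted test, and their part in the values below was not tested. WT replicates 2 and 3 stood apart: the mean of 15 mast cell and basophil markers was 7.97 and 8.08 there, with 8 markers detected on each, against 6.19 to 6.54 with 3 to 5 detected on the other 4 arrays, and 7 of the 15 were detected nowhere. The mean of 13 granulocyte markers was 9.54, 9.73 and 9.68 in WT replicates 2 and 3 and KO replicate 1, against 6.81 to 7.38 on the other 3 arrays. Erythroid, monocyte and macrophage, lymphocyte, and stromal and endothelial marker means lay between 5.55 and 7.07 on all arrays, and the first pair of lists were highest in WT replicates 2 and 3 as well.

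Of the 21 tested sorting nexins, 1 passed limma's adjusted test: Snx24 was 2.24-fold lower in the KO. Its size and its call depended on the processing, as given below, and it passed in 4 of 17 alternatives. The other 20 did not pass limma's test (adjusted p 0.31 to 0.99). The background rate by 1 probe per gene was 11 of 6869 tested genes, or 0.16%, and by probe 15 of 9403, also 0.16%. At an unadjusted p under 0.05 there were 3 sorting nexins (14.3%), Snx24, Snx20 and Snx7, against 12.9% of all tested genes. The arrays of the groups did not overlap for the same 3 genes (14.3%), against 18.2% of all tested genes. By mean, 11 were lower and 10 higher in the KO, where 51% of all tested genes were lower. Among the 10, Snx15 and Snx33 passed the detection filter only through the KO. The median difference, KO minus WT on the log2 scale, was -0.01 over the 21 genes and -0.01 over all tested genes. The median size of a difference, sign aside, was 0.19 in both. The differences ran from -1.16 for Snx24 to +0.42 for Snx7, and 13 of the 21 were smaller than 0.25 in size. The median 95% interval, for a single gene before adjustment, reached 0.42 to either side of the difference. The smallest difference called among all probes was 1.10 in size, so smaller changes in these genes may not have been detectable with 3 arrays a group.

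**Figure D1:**
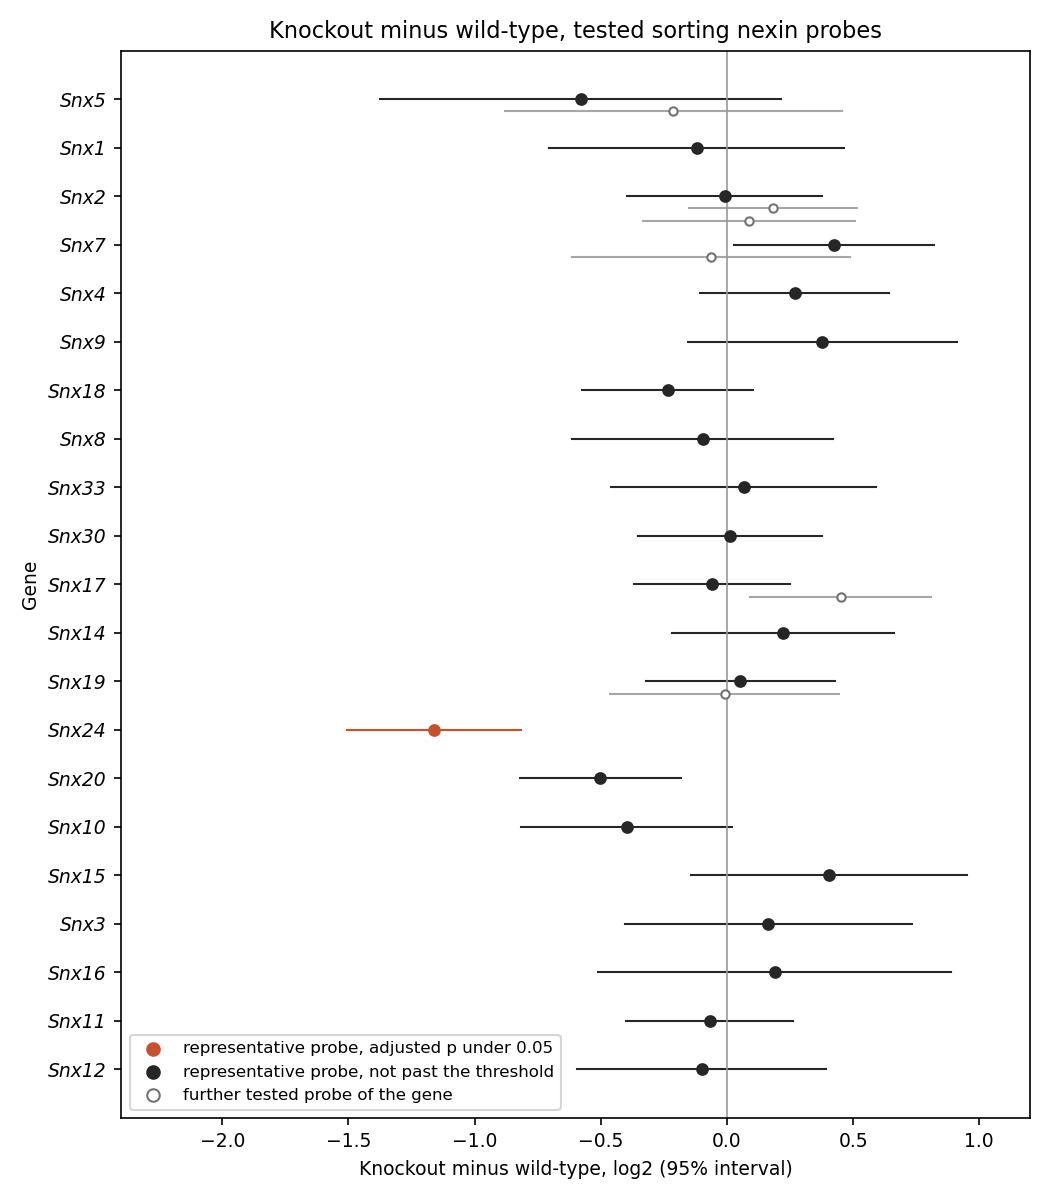
Difference in log2 intensity, KO minus WT, for the 27 tested sorting nexin probes, with 95% intervals from limma. Filled points are the representative probes, grouped from top to bottom by domain subfamily, and open points are further tested probes of the same gene. Snx24 at -1.16 is the only probe past the adjusted threshold, and the intervals of Snx20, Snx7 and the dimmer Snx17 probe also leave out 0.

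Snx24 belongs to the small sorting nexins that consist of little more than the PX domain. Its single probe (ILMN_2623064) read log2 7.19, 7.49 and 7.52 in WT replicates 1 to 3 and 6.32, 6.19 and 6.20 in KO replicates 1 to 3. Every KO array was below every WT array, by 0.86 between the nearest 2. The difference was -1.16 (SE 0.15, 95% interval -1.50 to -0.82, limma adjusted p = 0.038). In bulk RNA of this kind, fewer cells that express the gene and less RNA per cell cannot be told apart.

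The probe was dim on every array, and the raw data show how little signal the fold rests on. Raw intensity, with the standard error over beads, was 308.0 ± 18.5 (36 beads), 316.0 ± 14.7 (24 beads) and 283.6 ± 15.8 (37 beads) in WT replicates 1 to 3. In KO replicates 1 to 3 it was 221.1 ± 18.8 (41 beads), 263.0 ± 14.8 (35 beads) and 269.5 ± 13.4 (38 beads). The raw values of the groups were apart too, but WT replicate 3 and KO replicate 3 differed by 14.2 units, less than the bead standard error of the former. The arrays had different backgrounds: the lowest raw intensity with a detection p under 0.05 was 231.4, 202.2 and 196.5 in WT replicates 1 to 3 and 209.1, 255.7 and 251.3 in KO replicates 1 to 3. Against these limits, the WT signal stood 76.7, 113.7 and 87.2 units higher, which is 4.15 to 7.75 bead standard errors. The KO signal stood 12.1, 7.38 and 18.1 units above its limits, which is 0.498 to 1.35 bead standard errors. The WT readings were thus clear of the detection limit and the KO readings close to it, with detection p of 0.032, 0.036 and 0.026 on the KO arrays.

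**Figure D2:**
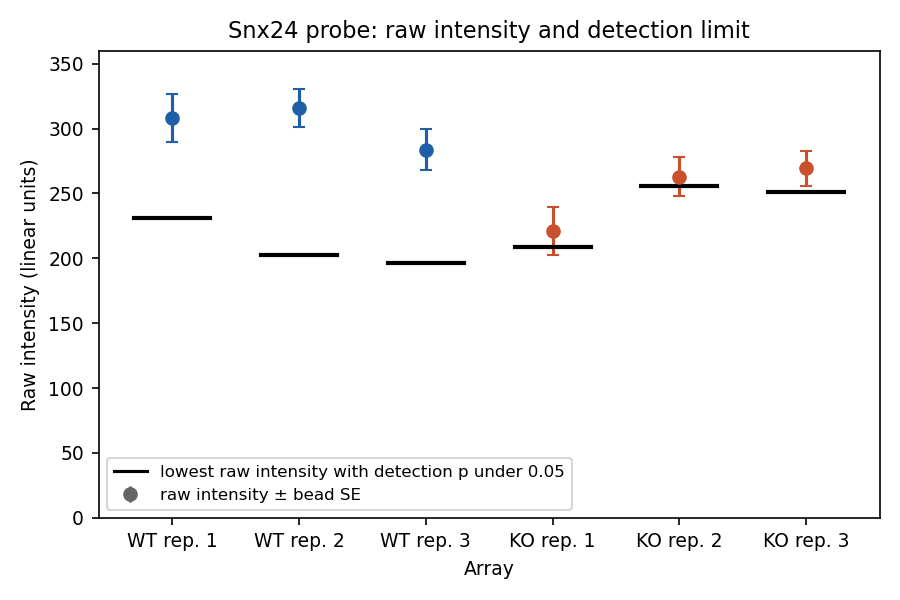
Raw linear intensity of the Snx24 probe on each array, with the standard error over its beads as bars. Black lines mark the lowest raw intensity with detection p under 0.05 on the same array. The 3 WT arrays lie 76.7 to 113.7 units above their lines and the 3 KO arrays 7.38 to 18.1 units.

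The size of the Snx24 difference depended on how the background was treated, and its call on single arrays. It was -0.66 under normexp with offset 50, -0.49 with no background correction and -0.31 on the scale of the authors' deposited values, none past the threshold (limma adjusted p = 0.14, 0.26 and 0.32). On the authors' deposited scale the arrays read 8.59, 8.69 and 8.70 in the WT and 8.37, 8.35 and 8.35 in the KO, again with no overlap. Leaving out 1 array kept the difference between -1.27 and -1.10. The call held without WT replicate 1 (limma adjusted p = 0.0053), in a fit that called 639 probes against 15. It was lost without WT replicate 2 (adjusted p = 0.27), WT replicate 3 (0.19), KO replicate 1 (0.17), KO replicate 2 (0.23) or KO replicate 3 (0.23) in the same limma fit. Snx24 was highest on WT replicates 2 and 3, the arrays with mast cell and basophil transcripts. With that marker mean in the model the difference was -0.99 (limma adjusted p = 0.19). With both arrays left out, the difference was -0.95 against the single remaining WT array, so the spread of the WT cannot be estimated there. Scaling to the 75th percentile left -1.17 (limma adjusted p = 0.070), and testing all 24611 probes left -1.16 (limma adjusted p = 0.071). Over all 17 alternatives the gene was lower in 17 and passed in 4. Outside the fit with a single WT array, the limma adjusted p ran from 0.0012 to 0.32.

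**Figure D3:**
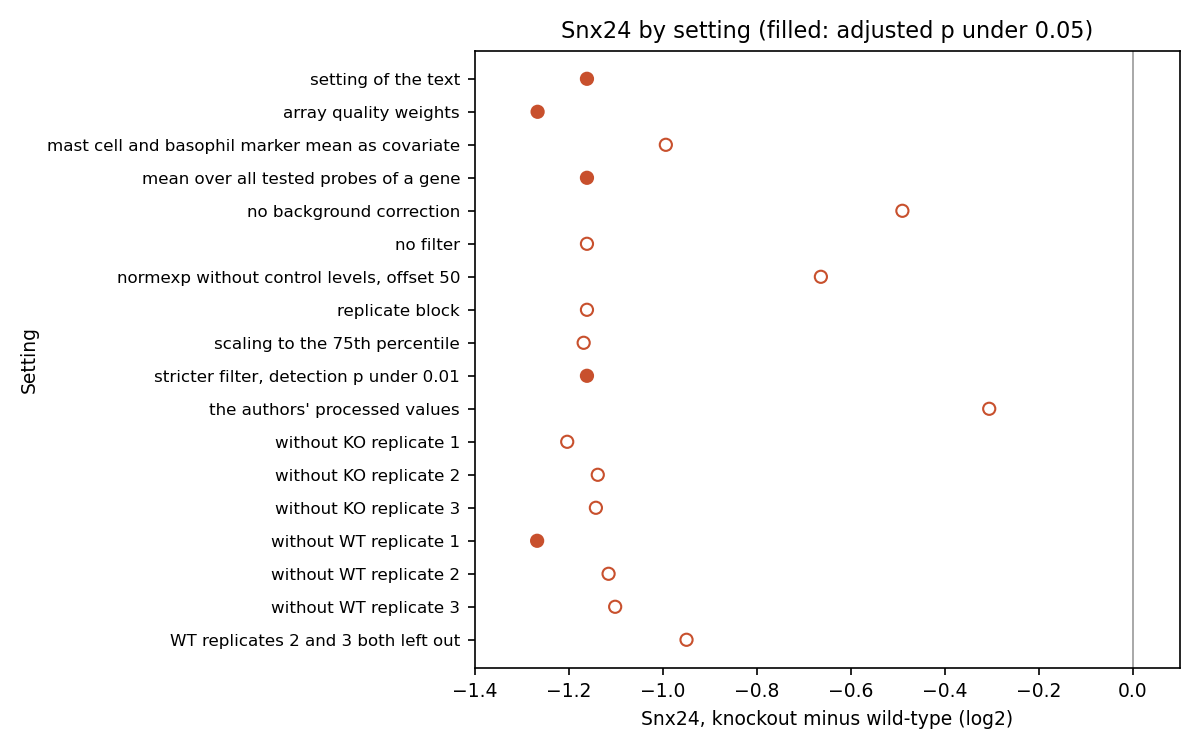
Difference in log2 intensity of Snx24, KO minus WT, under the setting of the text (top) and 17 alternatives. Filled points have a limma adjusted p under 0.05. All points lie below 0, and those with another background treatment or the authors' values lie closest to it.

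Snx24 was grouped with the members that lack a BAR, FERM or PXA domain. The others of this group with the smallest p were Snx20 and Snx10. Snx20, which binds the selectin ligand PSGL-1 in leukocytes, read 7.83, 7.77 and 7.87 in WT replicates 1 to 3 and 7.23, 7.25 and 7.48 in KO replicates 1 to 3. All 3 KO arrays were lower, and the WT arrays lay within 0.10 of each other. The difference was -0.50 (SE 0.14, 95% interval -0.82 to -0.18, limma adjusted p = 0.31), so Snx20 did not pass over all probes. It was -0.51 with WT replicates 2 and 3 left out, which leaves WT replicate 1 alone against the KO. Snx20, Snx10, Snx9 and Snx15 did pass with estimated array weights (limma adjusted p 0.021 to 0.037), a fit that called 1955 of 9403 probes against 15. Snx10, which interacts with the proton pump of endosomes and is needed by osteoclasts, read 9.58, 10.08 and 10.17 in the WT and 9.59, 9.54 and 9.51 in the KO. WT replicate 1 lay among the KO arrays, and WT replicates 2 and 3 lay higher. Its difference of -0.40 (SE 0.18, limma adjusted p = 0.38) was -0.04 against WT replicate 1 alone, with WT replicates 2 and 3 left out.

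The remaining tested members without a BAR, FERM or PXA domain differed less than their arrays varied. Snx3, which recruits retromer to endosomes and supports transferrin receptor recycling in red cell precursors, differed by +0.16 (95% interval -0.41 to 0.73), with ranges among arrays of 0.72 in the WT and 0.69 in the KO. Its near relative Snx12 differed by -0.10 and Snx11 by -0.07. Snx16, an endosomal protein with a coiled coil, differed by +0.19, with a range of 1.07 among the KO arrays. Snx15, which carries a microtubule-interacting and trafficking domain, was detected on 1 WT array and on all 3 KO arrays and differed by +0.40 (SE 0.24, limma adjusted p = 0.45), having passed the filter only through the KO. That difference was 0.0034 with WT replicates 2 and 3 left out, which leaves a single WT array. Of the 9 genes of this group on the array, Snx29 was not detected by either of its probes, with detection p of 0.18 to 0.84 over the 6 arrays.

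None of the 3 tested BAR-domain members that work with retromer passed limma's test, and none had an unadjusted p under 0.05. Snx5 read 7.56, 7.79 and 8.51 in WT replicates 1 to 3 and 6.70, 7.62 and 7.80 in KO replicates 1 to 3. The groups overlapped, with the lowest reading in KO replicate 1 and the highest in WT replicate 3. The difference was -0.58 (95% interval -1.37 to 0.21, limma adjusted p = 0.45), and the second Snx5 probe gave -0.21. Snx1 read 10.51, 10.16 and 9.83 in the WT and 9.59, 10.19 and 10.36 in the KO, a difference of -0.12 (95% interval -0.71 to 0.46). Snx2, its close relative, read 12.26, 11.75 and 12.01 in the WT and 12.09, 11.99 and 11.91 in the KO. The Snx2 difference was -0.01 (95% interval -0.40 to 0.38), and its other 2 probes gave +0.18 and +0.09. Snx6, the partner that is interchangeable with Snx5, was not well above background on any array by its only probe, with detection p of 0.16 to 0.51.

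Of the 7 other BAR-domain members tested, none passed limma's test and 1, Snx7, had an unadjusted p under 0.05. Snx7, which pairs with Snx4, read 8.70, 8.72 and 8.25 in WT replicates 1 to 3 and 9.03, 8.86 and 9.05 in KO replicates 1 to 3. All KO arrays were higher, and the difference was +0.42 (SE 0.17, 95% interval 0.03 to 0.82, limma adjusted p = 0.35). A second Snx7 probe, detected on all 6 arrays, gave -0.06 (95% interval -0.61 to 0.49), so the probes of this gene did not give the same direction. Snx4, which returns transferrin receptor to the recycling compartment, read 11.01, 10.91 and 10.77 in the WT and 11.39, 11.15 and 10.95 in the KO. Its groups overlapped and the difference was +0.27 (limma adjusted p = 0.46). Snx30, the alternative partner of Snx4, differed by +0.01 (95% interval -0.35 to 0.38).

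Snx9, Snx18 and Snx33 join an SH3 domain to the BAR domain and bind dynamin and actin-nucleating factors during endocytosis. Snx9 read 9.29, 8.48 and 8.56 in the WT and 9.30, 9.09 and 9.08 in the KO. WT replicate 1 read like the KO arrays, and WT replicates 2 and 3 were the lowest of the 6. The difference was +0.38 (SE 0.23, limma adjusted p = 0.46). It was -0.14 with WT replicates 2 and 3 left out, which leaves WT replicate 1 alone against the KO. With the mast cell and basophil marker mean in the model it was -0.04. That mean was highest on the same 2 arrays, so these fits are not separate checks. Snx18 differed by -0.24 (95% interval -0.57 to 0.10). Snx33 was dim, detected on 2 WT and 3 KO arrays, and differed by +0.07 (95% interval -0.46 to 0.59). It passed the detection filter only through the KO. Snx8, a BAR member of endosome-to-Golgi transport, differed by -0.10, with a range of 0.81 among the KO arrays.

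Snx17, the FERM-domain member, holds integrins, LDL receptor relatives and P-selectin for return to the cell surface. Its brighter probe read 12.63, 12.73 and 12.73 in the WT and 12.51, 12.74 and 12.66 in the KO, a difference of -0.06 (95% interval -0.37 to 0.25). The dimmer probe (ILMN_2733380) read 9.43, 9.15 and 9.30 in the WT and 9.93, 9.72 and 9.58 in the KO. Here every KO array was above every WT array, and the group means differed by +0.45 (SE 0.16, 95% interval 0.09 to 0.81, limma adjusted p = 0.33). The 2 Snx17 probes thus disagreed in direction, and neither passed. The other FERM-domain gene on the array, Snx31, was not well above background on any array.

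Neither tested member with a PXA domain passed limma's test, and neither had an unadjusted p under 0.05. Snx14, which sits in the endoplasmic reticulum and contacts lipid droplets, read 9.82, 9.43 and 9.43 in the WT and 10.08, 9.58 and 9.70 in the KO, a difference of +0.22 (95% interval -0.22 to 0.66). Its other 2 probes failed the detection filter. Snx19, at contacts between the endoplasmic reticulum and endolysosomes, read 9.65, 9.30 and 9.64 in the WT and 9.73, 9.60 and 9.43 in the KO. The Snx19 difference was +0.05 (95% interval -0.32 to 0.43) by the brighter probe and -0.01 by the other.

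**Figure D4:**
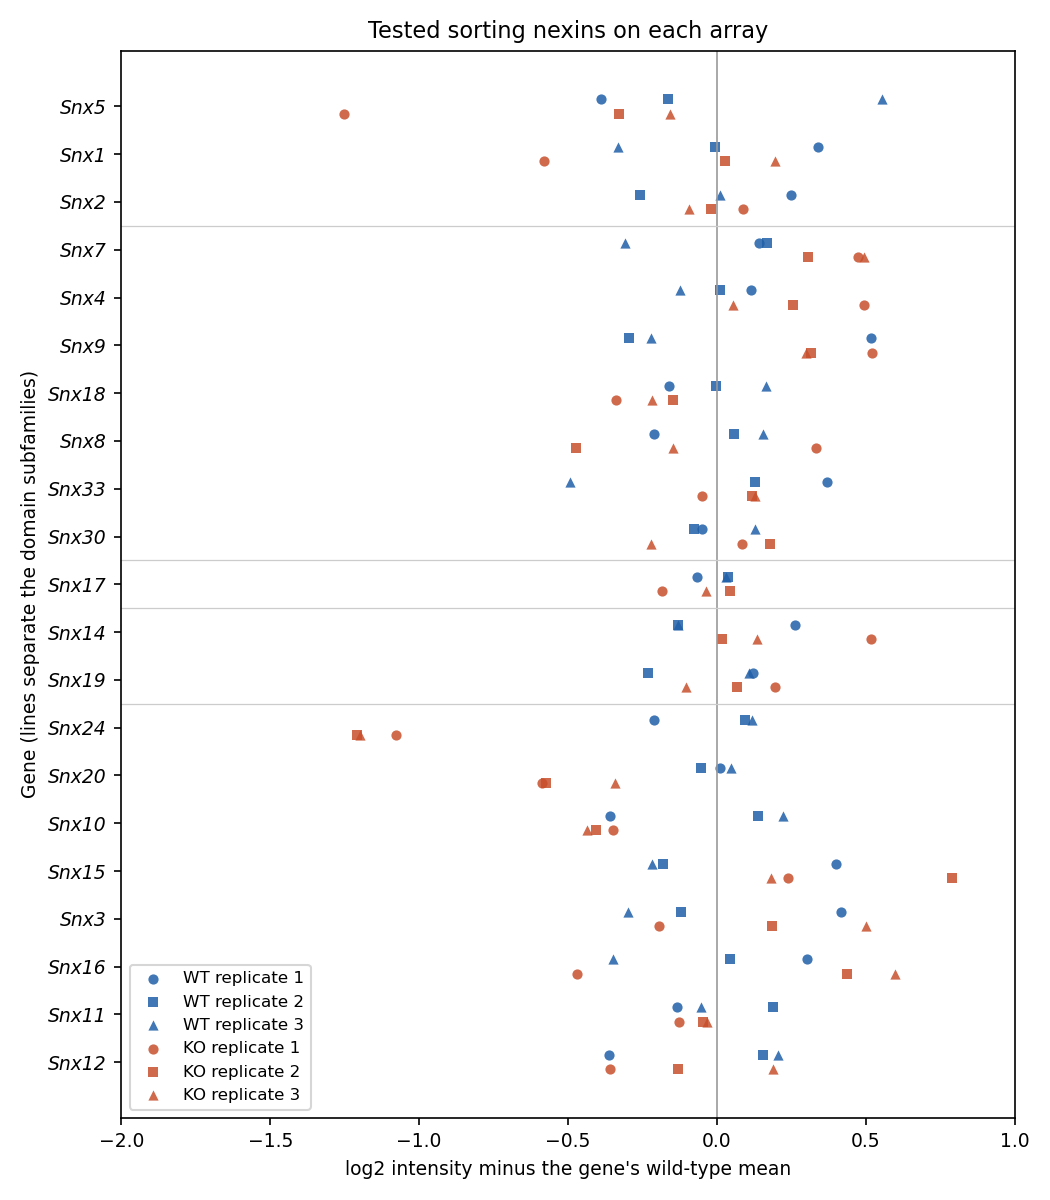
Log2 intensity of each tested sorting nexin on the 6 arrays, minus the gene's WT mean, with WT in blue and KO in orange and a symbol for each replicate number. Lines separate the subfamilies. From top to bottom these are BAR-domain members that work with retromer, other BAR-domain members, FERM, PXA, and members with none of these domains. The groups are apart for Snx24, Snx20 and Snx7, and Snx5 has the widest spread, 1.81 from lowest to highest.

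In these genes, arrays of the same genotype often differed as much as the genotypes did. For 18 of the 21 tested sorting nexins the range among the 3 WT arrays was larger than the difference between group means. The range among the 3 KO arrays was larger for 15. These shares were not computed over all tested genes, so they are not read as particular to sorting nexins. A range of 3 single arrays tends to exceed a small difference of means in any case. In 7 of the 21 (33.3%) WT replicates 2 and 3 both lay above or both below the other 4 arrays, against 40.6% of all tested genes. Of these, Snx10, Snx18 and Snx24 were highest on the 2 arrays and Snx4, Snx9, Snx14 and Snx15 lowest. Fits with the mast cell and basophil marker mean in the model, and without those 2 arrays, are given among the alternatives. Leaving the 2 arrays out keeps a single WT array, so the spread of the WT cannot be estimated there. The marker mean was highest on the same 2 arrays, so these fits are not separate checks. Beyond these fits, the part of the mast cell, basophil and granulocyte transcripts on those arrays in these values was not tested.

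Beside the Snx genes, 42 genes of endosomal machinery, cargo receptors and other PX-domain genes were tested. None of the 42 passed limma's test, in either direction. Of them, 3 (7.14%, against 12.9% of all tested genes) had an unadjusted p under 0.05, namely Ccdc22, Igf2r and Hs1bp3. Igf2r and Hs1bp3 passed the detection filter only through the KO, the group where they were higher, so their direction is not independent of the filter. These counts use 1 probe per gene; of the 6 further tested probes of these genes, those of M6pr, Sort1 and Washc3 also had an unadjusted p under 0.05. In the retromer, retriever and commander list, 16 genes were tested, 10 lower and 6 higher by mean, with a median difference of -0.05. Ccdc22, a commander subunit, had the smallest p, at -0.34 (limma adjusted p = 0.36), followed by Commd8 at -0.37 and the retromer subunit Vps26b at -0.32. Of the WASH complex, which nucleates actin on endosomes, 3 subunits were tested: Washc1 at -0.48 (limma adjusted p = 0.40), Washc5 at -0.23 and Washc3 at 0.00 (-0.80 by its dimmer probe, limma adjusted p = 0.33). Washc1 read 8.77 and 9.13 in WT replicates 2 and 3 and 8.08 to 8.37 on the other 4 arrays. Of 8 tested enzymes that make or remove endosomal phosphoinositides, 3 were lower and 5 higher, with Pik3r4 at +0.48, Mtmr2 at +0.32 and Pik3c3 at -0.24 (median +0.14).

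Cargo receptors of these routes did not pass either. Of 9 tested, 3 were lower and 6 higher, with a median difference of +0.11. Igf2r is the mannose 6-phosphate receptor that retromer and its sorting nexins retrieve. It was not well above background on any WT array and was detected on all 3 KO arrays. Its KO group mean was at least 1.17-fold higher, a bound that leaves out the spread between arrays. Igf2r did not pass (limma adjusted p = 0.33). M6pr, the smaller mannose 6-phosphate receptor, differed by -0.13 by its brighter probe and by +0.62 by its dimmer one (limma adjusted p = 0.31), so its probes disagreed in direction. Sort1, the sortilin receptor, differed by -0.20 (+0.58 by the dimmest of its 3 tested probes, limma adjusted p = 0.35) and Slc11a2, an iron transporter, by +0.41. Among 6 tested PX-domain genes outside the Snx names, Hs1bp3 was detected on the 3 KO arrays and no WT array. Its KO group mean was at least 1.11-fold higher, again leaving out the spread between arrays. Hs1bp3 did not pass (limma adjusted p = 0.32). The kinase Sgk3 differed by -0.56 and Pxk by +0.28. Sgk3 read 7.88 and 7.68 in WT replicates 2 and 3, the arrays with mast cell and basophil transcripts, and 6.82 to 6.99 on the other 4. In the fit without WT replicate 1, which called 639 probes against 15, Sgk3 differed by -0.86 and passed (limma adjusted p = 0.024).

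Since the groups differ by serum response factor, the promoters of the sorting nexins were searched for its binding element, the CArG box, which reads the same on both strands. RefSeq promoters (GRCm38.p6, 250 bases before to 50 bases after the start) were at hand for 17 of the 24 genes, in 20 windows, and not for Snx2, Snx9, Snx15, Snx16, Snx20, Snx24 and Snx31. None of the 20 held a full CArG box, against 1.63% of 32851 promoters. At that rate 20 windows would most often hold none, so the absence does not set these genes apart. A form with at most 1 mismatch stood in 2 (10%), against 21.1% of all promoters, and the median GC content was 65% in the sorting nexin windows and 52.7% overall. The 2 are shown 5′ to 3′, with the 10 letters of the match in capitals. Among the 20 windows they are the closest to the factor's element. No window was at hand for Snx24, the gene called, so the search does not bear on it. The Snx17 window lies at chr5:31193054-31193353 on the plus strand, with the match beginning at position -106 from the start. The Snx33 window lies at chr9:56928322-56928621 on the minus strand, with the match beginning at position -151 from the start.
Snx17 promoter: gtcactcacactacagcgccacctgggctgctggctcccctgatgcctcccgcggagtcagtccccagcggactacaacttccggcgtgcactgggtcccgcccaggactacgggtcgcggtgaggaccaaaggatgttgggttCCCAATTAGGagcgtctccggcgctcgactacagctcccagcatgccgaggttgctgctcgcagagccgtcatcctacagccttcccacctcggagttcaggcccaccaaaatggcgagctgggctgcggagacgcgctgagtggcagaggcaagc
Snx33 promoter: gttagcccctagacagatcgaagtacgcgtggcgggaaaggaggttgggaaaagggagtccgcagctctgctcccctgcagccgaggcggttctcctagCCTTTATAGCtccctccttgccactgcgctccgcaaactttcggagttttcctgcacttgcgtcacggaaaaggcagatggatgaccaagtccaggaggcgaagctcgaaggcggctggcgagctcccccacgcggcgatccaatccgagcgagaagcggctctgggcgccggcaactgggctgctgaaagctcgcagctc
Neither gene passed the test: Snx17 differed by -0.06 and +0.45 by its 2 probes, and Snx33 by +0.07. A match in such a window describes its letters and is not a measured binding site.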

How the data were processed

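The deposited raw table gave, per the file headers, a raw linear intensity for each of 24611 probes on 6 arrays, its standard error over beads, the bead number and a detection p-value. The authors' deposited processed values resemble log2 units, but their transform is not stated in the sources used here. The submitters' processing notes name BeadStudio 3.2 and lumi, without roles. Each processed column matched its own raw column best (correlation across probes after removing each probe's mean, 0.904 to 0.970, and 0.545 or less with any other column).

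With R 4.3.3 and limma 3.58.1, intensities were background-corrected from the detection p-values (offset 16), quantile normalized and converted to log2 (neqc). The offset shrinks differences of dim probes. limma's linear model with eBayes compared KO with WT, two-sided, with Benjamini-Hochberg adjustment over 9403 tested probes. The fit was tested on simulated data. A gene with no array of a group above background has a bound, for which each dim reading was first raised, where below it, to the lowest detected value of its array, and the group means were then compared. Symbols came from the platform annotation. The number of arrays limits the precision.

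Named genes were those called, in each subfamily up to 3 with the smallest p and those with groups apart, up to 3 of each other list, and Srf. The members, lists and alternatives were chosen with earlier results of these data known. Alternatives covered background, scaling, filter, authors' values, replicate block, array weights, marker covariate, probe choice and left-out arrays.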

Additional observations from a re-analysis of the deposited data

How the results depend on the processing

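Snx24 was the one sorting nexin called in the setting of the text. The count was 0 with normexp at offset 50, without background correction, with percentile scaling and on the authors' values. It was also 0 with no filter, with the replicate block and with the marker covariate. With array quality weights the count was 5 of 21 (Snx9, Snx10, Snx15, Snx20 and Snx24), in a fit that called 1955 of 9403 probes. Of these, Snx15 had passed the detection filter only through the KO, where it was higher. With 1 array left out the count was 0 to 1. Why the counts differed between settings was not tested. Over all probes, 15 were called, 1955 with array weights, 9 with gene means, 9 with no filter and 6 with the replicate block, and 7 to 639 with 1 array left out, the highest without WT replicate 1. The weights ranged from 0.32 for WT replicate 1 to 5.91 for WT replicate 2. Genes called in the other lists numbered 0, with array weights 8 of 42, and with 1 array left out 0 to 1, where Sgk3 passed without WT replicate 1. The sorting nexin median (-0.01) was -0.076 with percentile scaling, where all genes had -0.039, and -0.068 with WT replicates 2 and 3 both left out, and ran from -0.026 to 0.050 with 1 array left out.

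The labels do not say whether same-numbered WT and KO samples were paired. Same-numbered arrays deviated from their group means with correlations of -0.27, -0.13 and -0.09. With 3 arrays a group these values cannot settle whether the samples were paired. With the replicate block the Snx24 difference stayed at -1.16 (limma adjusted p = 0.27).

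Of 354 single-gene values under the alternatives, 40 in 13 genes changed sign, none of a gene that had passed and none past the threshold there. Without WT replicates 2 and 3 they were Snx11 at 0.065, Snx12 at 0.26, Snx14 at -0.038, Snx16 at -0.11, Snx17 at 0.0085, Snx19 at -0.068, Snx3 at -0.25, Snx33 at -0.30, Snx8 at 0.12 and Snx9 at -0.14. With the marker covariate they were Snx11 at 0.036, Snx12 at 0.21, Snx16 at -0.033, Snx19 at -0.049, Snx3 at -0.15, Snx33 at -0.24, Snx8 at 0.075 and Snx9 at -0.040. With array weights they were Snx1 at 0.019 and Snx2 at 0.18, and with gene means Snx17 at 0.20 and Snx2 at 0.087. With 1 array left out, Snx1 ran from -0.29 to 0.11, Snx11 from -0.14 to 0.026, Snx12 from -0.28 to 0.029, Snx16 from -0.016 to 0.52, Snx17 from -0.11 to 0.0031, Snx19 from -0.062 to 0.13, Snx2 from -0.14 to 0.12, Snx3 from -0.0047 to 0.37, Snx30 from -0.069 to 0.13, Snx33 from -0.18 to 0.25 and Snx8 from -0.31 to 0.092.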
